A study of Mus musculus with 24 samples.

Results

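The genes described here are 7 genes of neuronal ion transport, measured in 4 classes of sorted neurons. Atp1b1, Atp1b2 and Atp1b3 encode the beta subunits of the sodium pump. Fxyd6 and Fxyd7 encode 2 small membrane proteins of the FXYD family, and Slc12a2 and Slc12a5 the chloride cotransporters NKCC1 and KCC2. The genes were chosen by name, with earlier results of these data known, and make up 7 of the 36528 genes listed in each library. All 7 passed the filter on low counts. The data are 24 bulk RNA-seq libraries of live cells sorted by GFP or tdTomato fluorescence from tissue of adult mice labelled cortex. There are 6 for each subtype that the labels call EXC, PV, SST or VIP. By sex, 4 EXC, 3 PV, 4 SST and 2 VIP libraries are male and the other 11 of the 24 are female. No treatment is given, and the labels name neither the strain, the exact age nor the driver line of a sort. The labels do not spell the subtype names out, state which reporter marked which subtype or say how many animals a library pools. The p-values below therefore measure the spread between these libraries, which may in part be technical. Bulk libraries cannot tell fewer cells with a transcript apart from less of it per cell.

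The sodium pump exports sodium and imports potassium at the cost of ATP, and it restores both gradients after action potentials. Its catalytic subunit needs a beta subunit to fold, leave the endoplasmic reticulum and reach the membrane, and FXYD proteins bind the finished pump and tune its affinity for ions. The gradients in turn drive chloride: NKCC1 carries chloride in along with sodium and potassium, KCC2 carries it out with potassium, and their balance helps set whether GABA-A receptors hyperpolarise a mature cortical neuron.

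The promoters of Atp1b1 and Fxyd6 are shown because these 2 genes stood at opposite ends in PV libraries, Atp1b1 with its highest and Fxyd6 with its lowest level. Each is a 300-base window from RefSeq on GRCm38.p6, read 5′ to 3′ along the gene from 250 bases before the start site to 50 after it. That of Atp1b1 is chr1:164458306-164458605 on the minus strand and that of Fxyd6 chr9:45369935-45370234 on the plus strand. The gene record of Fxyd6 begins at 45369470, upstream of this window, so the start site used is not the outermost one. Capitals mark matches on either strand to 5 motifs. These are the TATA box, searched as the letters TATANA, and the CCAAT box, searched as those of its name. The GC box was searched as GGGCGG, the E-box as CANNTG and the cyclic AMP response element as TGACGTCA.
Atp1b1 promoter: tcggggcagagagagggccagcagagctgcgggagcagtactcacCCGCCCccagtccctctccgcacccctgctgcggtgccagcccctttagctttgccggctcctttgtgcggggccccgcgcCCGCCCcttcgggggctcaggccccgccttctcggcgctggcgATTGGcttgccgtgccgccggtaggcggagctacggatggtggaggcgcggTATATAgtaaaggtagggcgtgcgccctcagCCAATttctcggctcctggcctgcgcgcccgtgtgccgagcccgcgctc
Fxyd6 promoter: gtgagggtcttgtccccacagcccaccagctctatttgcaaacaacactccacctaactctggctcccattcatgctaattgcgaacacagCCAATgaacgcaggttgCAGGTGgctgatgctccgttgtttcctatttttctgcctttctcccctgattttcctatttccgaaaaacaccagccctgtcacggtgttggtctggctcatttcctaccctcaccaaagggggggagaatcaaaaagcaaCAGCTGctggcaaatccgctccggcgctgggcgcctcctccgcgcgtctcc

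The Atp1b1 window held a TATA box match starting at -30, counted from 0 at the start site, 2 CCAAT matches at -81 and 1, and 2 GC box matches at -205 and -124. The Fxyd6 window held a CCAAT match at -159 and E-box matches at -142 and -1. None of the capitalised matches overlap. Over the 32851 promoter windows of this length in RefSeq, 24.7% hold the TATA letters, 37.4% CCAAT, 35.7% the GC box, 72.3% an E-box and 1.79% the cyclic AMP response element. The GC content of the window was 71% for Atp1b1 and 54.3% for Fxyd6, against a median of 52.7% over all windows. A match is a description of the letters and not evidence of binding.

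The FXYD genes are shown by the coding stretch around the short motif that names the family, since it is what Fxyd6 and Fxyd7 share despite their different levels across the sorts. The 60 bases are from the GENCODE M21 transcripts, read 5′ to 3′, with the 4 codons of the motif in capitals.
Fxyd6 coding stretch: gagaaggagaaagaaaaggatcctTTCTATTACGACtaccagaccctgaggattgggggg
Fxyd7 coding stretch: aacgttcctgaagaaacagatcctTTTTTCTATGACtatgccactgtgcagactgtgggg
The motif opens at codon 29 of a reading frame of 282 bases in Fxyd6, on chromosome 9, and at codon 18 of one of 240 bases in Fxyd7, on chromosome 7.

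Total reads per library ran from 1548907 to 15978459, with PV libraries the shallowest. Each sort carried its own marker: Pvalb was at least 178 CPM (read counts scaled to a common library size with TMM factors) in every PV library, Sst at least 701 CPM in every SST library and Vip at least 1634 CPM in every VIP library. The excitatory markers summed to 1818 to 5066 CPM in EXC and to at most 918 CPM elsewhere. The lowest EXC sum, with the highest EXC sum of GABA neuron markers (767 CPM), belonged to EXC replicate 3. Dentate granule cell markers summed to 1161 to 1653 CPM in EXC, led by Prox1 at 942 ± 103 and Dsp at 275 ± 69.5 CPM, and with C1ql2 at 63.8 ± 17.5 CPM. Their sum of 1077 to 1174 CPM in VIP was nearly all Prox1, which VIP neurons also express. The part of dentate granule cells in the EXC levels of the 7 genes was not tested. Ependymal markers summed to 43.9 to 150 CPM in PV and to at most 7.20 CPM in the other libraries. Mitochondrially encoded genes took 14.4% to 52.9% of the reads in PV and at most 16.6% elsewhere.

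The sequencing pool given in the labels limits most comparisons between subtypes. All 6 PV and 5 EXC libraries lie in POOL6188, 5 SST and 2 VIP libraries in POOL7098, 4 VIP libraries and EXC replicate 3 in POOL7099, and SST replicate 5 in POOL7100. PV shares no pool with SST or VIP, SST shares none with EXC, and VIP meets EXC only through EXC replicate 3. In these 4 comparisons subtype and pool cannot be told apart except through EXC replicate 3 alone. PV and EXC could be compared within POOL6188, and SST and VIP within POOL7098.

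**Figure D1:**
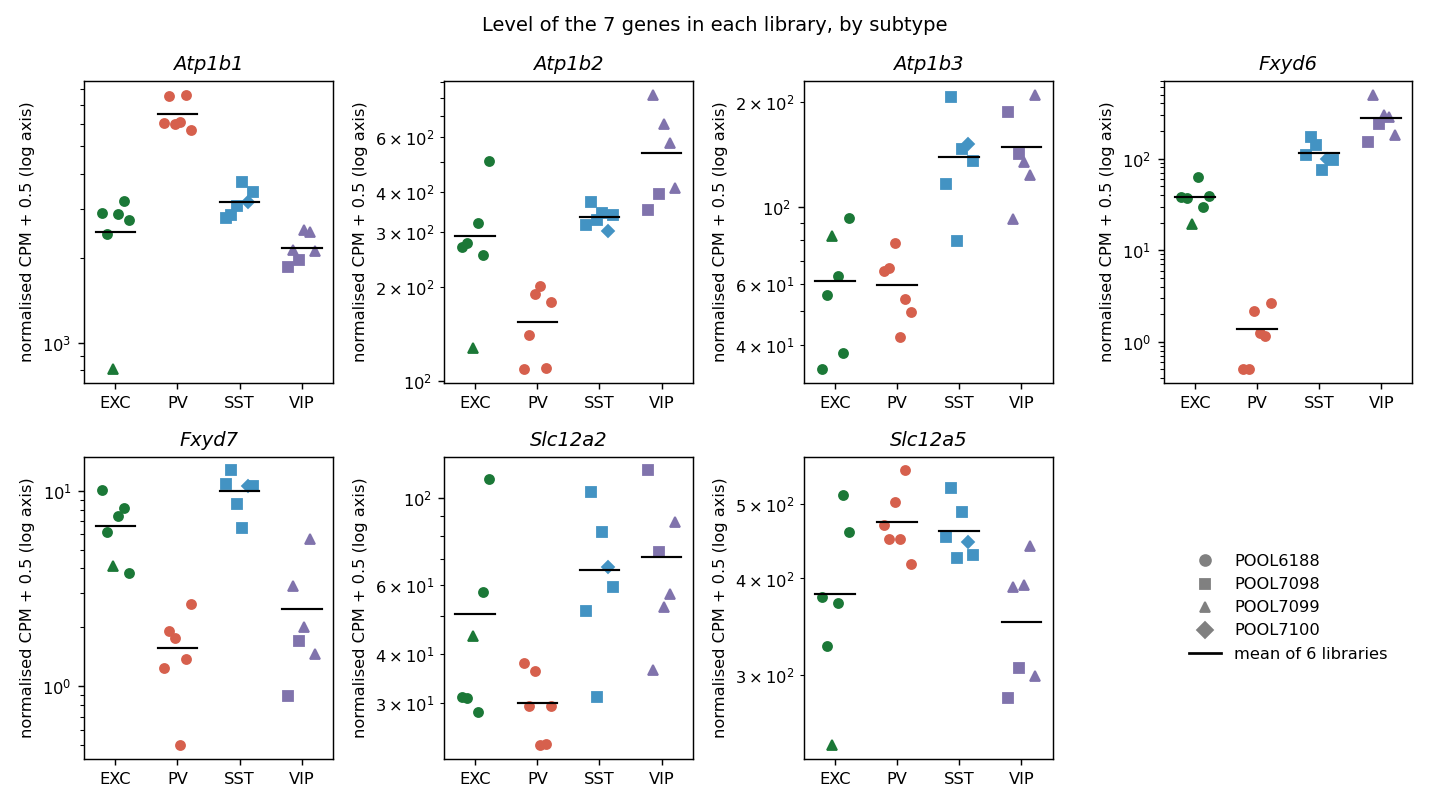
Level of each of the 7 genes in the 24 libraries, as normalised CPM + 0.5 on a log axis, by subtype (x axis); each point is 1 library, its shape is the sequencing pool, and the bar is the mean of the 6 libraries. Atp1b1 was highest and Fxyd6 lowest in PV, and EXC replicate 3, the triangle in EXC, is the lowest Atp1b1 point at 805 CPM.

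Which of these genes differ between classes was tested for each pair of subtypes with edgeR's quasi-likelihood test, with Benjamini-Hochberg adjustment over the 14890 genes tested and a call at an adjusted p under 0.05. The largest numbers of the 7 genes were called where PV met another interneuron class. Against SST 6 of 7 were called in PV, 1 higher and 5 lower, where 26.3% of all genes tested were called (11.4% higher and 14.9% lower). Against VIP 6 of 7 were called in PV, 2 higher and 4 lower, where 48.6% of all genes were called (21.9% higher and 26.7% lower). Against EXC 4 of 7 were called in PV, 1 higher and 3 lower, where 45.9% of all genes were called (20.3% higher and 25.6% lower). SST against EXC gave 2 of 7, both higher, beside 38.4% of all genes (17.1% higher and 21.3% lower). VIP against EXC gave 4 of 7, 3 higher and 1 lower, beside 39.1% (18.4% higher and 20.7% lower). SST against VIP gave 4 of 7, 2 in each direction, beside 31.3% (14.6% higher and 16.7% lower).

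The median log2 fold change of the 7 genes was -0.69 for PV against EXC, -1.12 for PV against SST and -1.29 for PV against VIP, where the medians of all genes tested were -0.12, -0.03 and -0.09. It was 0.43 for SST against EXC, 0.60 for VIP against EXC and -0.13 for SST against VIP, against -0.06, 0.01 and -0.003 over all genes. With the pool as a covariate the number called changed from 2 to 5 for SST against EXC and from 6 to 2 for PV against VIP. These comparisons share libraries and are not independent of each other.

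**Figure D2:**
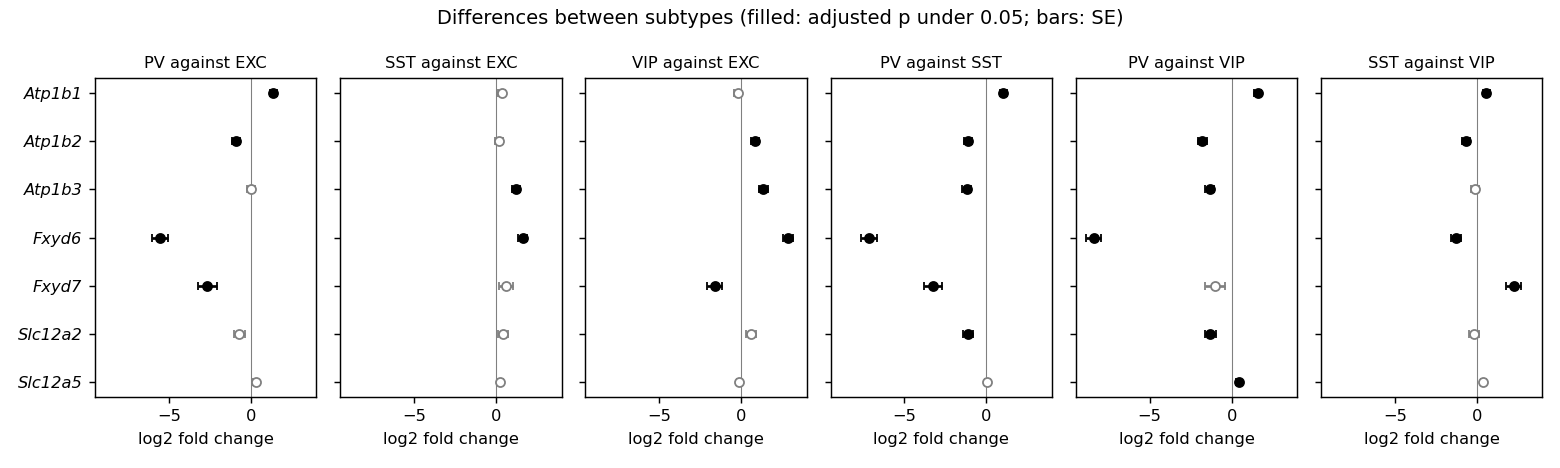
Log2 fold change (x axis) of the 7 genes (y axis) in each pair of subtypes, first against second, with the standard error as bars; filled points have an adjusted p under 0.05. Fxyd6 was the only gene of the 7 called in all 6 pairs, from -8.41 for PV against VIP to 2.87 for VIP against EXC.

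Per length, Atp1b1 was by far the most abundant of the 7 genes in every subtype, and Fxyd7 and Slc12a2 were among the lowest 3. In the deposited RPKM, which divide by gene length, Atp1b1 had a mean of 1474 ± 160 for PV, 710 ± 86.3 for SST, 566 ± 185 for EXC and 511 ± 49.7 for VIP (SD over 6 libraries). The mean RPKM of Atp1b2 was 30.7 for PV, 65.0 for SST, 58.1 for EXC and 109 for VIP. That of Slc12a5 was 43.7 for PV, 42.0 for SST, 35.7 for EXC and 33.5 for VIP. The mean RPKM of Atp1b3 was lowest for PV at 14.2 and highest for VIP at 37.2, with 33.1 for SST. Fxyd6 ran from 0.264 RPKM in PV to 85.2 in VIP, so that in VIP it passed Slc12a5 and in PV it was the lowest of the 7. Slc12a2 stayed between 2.57 and 6.38 RPKM, and Fxyd7 between 0.405 and 3.48.

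Atp1b1 encodes the beta 1 subunit, the beta subunit found in most neurons (NCBI Gene 11931, chromosome 1, 164437099 to 164458355). PV libraries ran from 5737 to 7635 CPM with a median of 6092, and averaged 6523 ± 848. SST libraries ran from 2794 to 3736 CPM with a median of 3122, VIP libraries from 1870 to 2529 with a median of 2129, and EXC libraries from 805 to 3196 with a median of 2809. Every PV library lay above every library of the other subtypes, and every SST library above every VIP library. The log2 fold change of PV was 1.37 ± 0.21 against EXC (adjusted p = 5.04e-06), 1.03 ± 0.21 against SST (adjusted p = 0.00042) and 1.60 ± 0.21 against VIP (adjusted p = 7.88e-07). SST was 0.57 ± 0.21 above VIP (adjusted p = 0.0384), a call that was lost when any of VIP replicates 1, 2, 3 or 6 or SST replicates 4, 5 or 6 was left out (0.52 to 0.56, largest adjusted p = 0.0902). Within POOL7098 the same difference was 0.83 ± 0.21 (adjusted p = 0.00633). The VIP libraries of that pool, at 1870 and 1969 CPM, were the lowest in VIP.

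EXC replicate 3 bore on the lower neighbours of Atp1b1. Without a pool term SST against EXC did not pass the test, at 0.35 ± 0.20 (adjusted p = 0.183). Nor did VIP against EXC, at -0.22 ± 0.21 (adjusted p = 0.425). Without EXC replicate 3, which had the lowest excitatory marker sum in EXC, VIP fell by 0.34 relative to EXC (-0.34 ± 0.13, adjusted p = 0.0335). PV against EXC was 1.22 ± 0.13 without that library (adjusted p = 1.44e-08) and 1.22 ± 0.13 within POOL6188 (adjusted p = 5.46e-07). With the pool as a covariate, EXC replicate 3 links the pools. In that fit PV against SST turned to -1.04 ± 0.33 (adjusted p = 0.0256) and PV against VIP to -0.31 ± 0.27 (adjusted p = 0.503). VIP against EXC turned to 1.51 ± 0.27 (adjusted p = 0.000151). PV thus lay further below SST than below VIP, so SST lay above EXC by more than VIP did. Without EXC replicate 3 and without the pool term, PV stayed above SST by 1.01 ± 0.12 (adjusted p = 2.84e-07) and above VIP by 1.56 ± 0.12 (adjusted p = 7.3e-11). The 3′ end of Atp1b1 overlaps Nme7, and since the sources used here do not give the strand setting of the counting, reads there cannot be assigned to 1 of the genes with certainty.

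Atp1b2 encodes the beta 2 subunit, first described as an adhesion molecule on glia and also made by neurons (11932, chromosome 11, 69599728 to 69605978). Its order was the reverse of that of Atp1b1 at both ends. PV libraries ran from 108 to 201 CPM with a median of 159, EXC from 127 to 505 with a median of 271, SST from 300 to 374 with a median of 332 and VIP from 352 to 820 with a median of 495. PV did not overlap SST or VIP, while EXC overlapped all other subtypes. The log2 fold change of PV was -0.93 ± 0.25 against EXC (adjusted p = 0.00303), -1.12 ± 0.25 against SST (adjusted p = 0.00104) and -1.78 ± 0.25 against VIP (adjusted p = 2.22e-06). VIP was 0.85 ± 0.25 above EXC (adjusted p = 0.008), and SST and EXC did not differ past the test (0.19 ± 0.24, adjusted p = 0.56).

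The difference between SST and VIP in Atp1b2 was called over all libraries but not within POOL7098, the only pool they share. The difference was -0.66 ± 0.25 for SST against VIP (adjusted p = 0.0435). The 2 VIP libraries of POOL7098 stood at 352 and 395 CPM, close to the SST libraries. The 4 of POOL7099 stood at 413 to 820 CPM, with replicate 6 at 413 CPM and replicates 2, 4 and 5 at 820, 660 and 576 CPM. These last 3 also had more mitochondrial reads (14.6%, 14.2% and 16.6%) than VIP replicates 1, 3 and 6 (1.80%, 5.83% and 4.81%). Their excitatory marker sums were higher as well, at 918, 564 and 799 CPM against 337, 335 and 331 CPM. The part of either in the Atp1b2 level was not tested. Within POOL7098 the difference was -0.04 ± 0.18 (adjusted p = 0.864), and with the pool as a covariate -0.14 ± 0.26 (adjusted p = 0.719). Leaving out 1 library ended the call in 12 of 24 cases (-0.53 to -0.66). These were EXC replicates 1 and 2, PV replicates 4 and 5, SST replicates 1, 3, 4, 5 and 6, and VIP replicates 2, 4 and 5. The largest adjusted p was 0.102, without VIP replicate 2.

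Astrocytes also make Atp1b2, and all 10 astrocyte markers had reads in every subtype. Their sum ran from 325 to 892 CPM in EXC, 279 to 432 in PV, 55.0 to 148 in SST and 147 to 244 in VIP. PV libraries lay above all SST and VIP libraries in this sum and below them in Atp1b2. The largest part of the sum was Slc4a4, whose mean was 307 CPM for EXC libraries and 162 for PV. Its mean was 91.5 CPM for VIP libraries and 62.0 for SST. Aqp4, Gja1, Sox9 and Aldoc had higher means in PV than in EXC, and the other markers had lower ones. The order of EXC and PV in astrocyte signal thus depended on the marker. EXC replicate 6 had the highest astrocyte sum, 892 CPM, and the highest Atp1b2 level in EXC, 505 CPM. Without it Atp1b2 in PV fell by 0.67 relative to EXC (-0.67 ± 0.22, adjusted p = 0.0162) and VIP stood 1.11 ± 0.23 above EXC (adjusted p = 0.000386). The part of astrocytes in the Atp1b2 level was not tested.

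Atp1b3, the beta 3 subunit gene (11933, chromosome 9, 96332655 to 96364431), split the classes into a lower and a higher pair. EXC libraries ran from 33.5 to 92.4 CPM with a median of 59.0 and PV libraries from 41.8 to 78.0 with a median of 59.4. SST libraries ran from 79.1 to 207 CPM with a median of 140 and VIP libraries from 91.4 to 210 with a median of 138. PV lay below every SST and VIP library, and EXC overlapped both only at its upper end. SST exceeded EXC by 1.21 ± 0.25 (adjusted p = 0.000304) and VIP exceeded EXC by 1.35 ± 0.26 (adjusted p = 0.000128). PV was 1.21 ± 0.25 below SST (log2 fold change -1.21, adjusted p = 0.000655) and 1.34 ± 0.25 below VIP (-1.34, adjusted p = 0.000112). Within each pair no difference passed: 0.005 for PV against EXC (95% interval -0.52 to 0.53) and -0.13 for SST against VIP (-0.65 to 0.38), and the sign of the first turned under several scalings. With the pool as a covariate none of the 4 calls held (0.58, 0.85, -0.49 and -0.76 in the same order, smallest adjusted p = 0.238).

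The beta subunits were also compared as shares within a library, which do not depend on how libraries are scaled. Atp1b1 held 97.0% ± 0.76 of the summed beta RPKM in PV, 87.7% ± 4.80 in EXC, 87.8% ± 2.02 in SST and 77.8% ± 2.73 in VIP. PV libraries ran from 96.0% to 98.0% with a median of 96.9%, EXC libraries from 80.2% to 92.5% with a median of 89.2%, SST libraries from 83.9% to 89.3% with a median of 88.4% and VIP libraries from 72.4% to 79.8% with a median of 78.5%. The groups were separate except SST and EXC, which overlapped widely. An exact two-sided permutation test of 6 against 6 libraries gave p = 0.00216 for each of the 5 separate pairs, the smallest p it allows, and 0.00433 after adjustment over the 12 share and ratio tests. SST and EXC differed by 0.099 percentage points (exact permutation p = 0.959). The shares are free of library scaling but not of the pool, and the test holds no pool term. PV shares no pool with SST or VIP, and VIP meets EXC only through EXC replicate 3. In those pairs pool and subtype cannot be told apart except through that library. Within POOL6188 the share of PV exceeded that of EXC by 7.83 points (exact permutation p = 0.00433). Atp1b2 held 16.4% ± 4.26 of the sum in VIP and 2.06% ± 0.69 in PV.

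The summed RPKM of the 3 beta genes was 1518 ± 155 in PV, 807 ± 87.5 in SST, 657 ± 66.8 in VIP and 639 ± 196 in EXC (SD over 6 libraries), given as a description without a test. The sum ran from 1400 to 1745 in PV libraries, from 710 to 955 in SST, from 569 to 738 in VIP and from 254 to 782 in EXC. Every PV library lay above every other library, and EXC, SST and VIP overlapped in each pair.

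**Figure D3:**
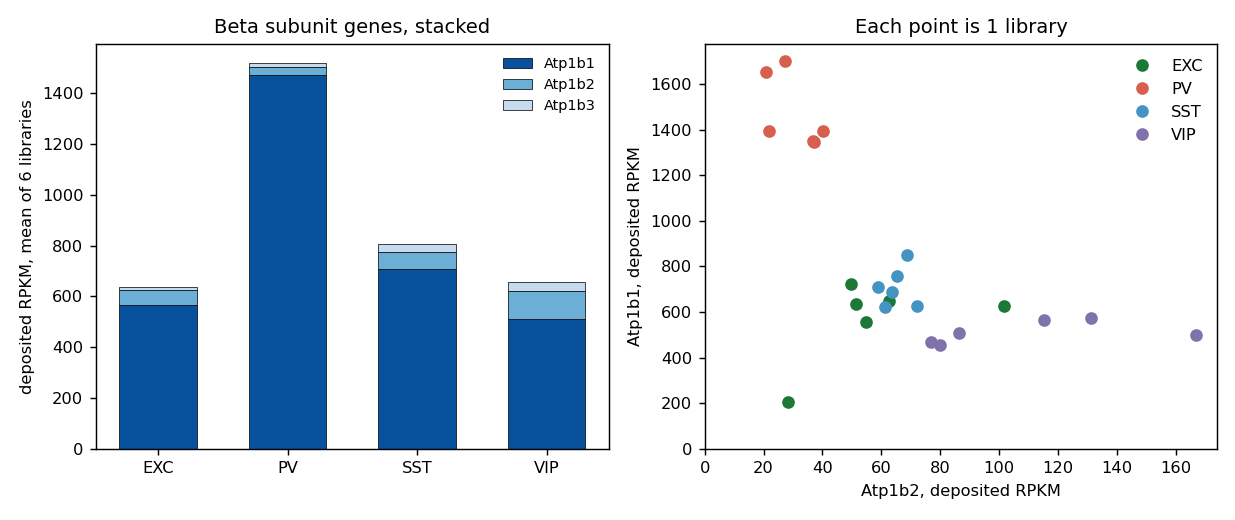
Left, the deposited RPKM of the 3 beta genes (y axis), each the mean of 6 libraries, stacked per subtype; right, the RPKM of Atp1b1 (y axis) against that of Atp1b2 (x axis), each point 1 library. The 6 PV libraries lie apart at the upper left, with 1348 RPKM of Atp1b1 or more, and the point with the least Atp1b1 is EXC replicate 3.

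Fxyd6, the gene of a FXYD protein also called phosphohippolin (59095, chromosome 9, 45369470 to 45396159), had the widest range of the 7 genes. In PV it had 11 reads over the 6 libraries, with 0 reads in 2 of them, and a level of 0 to 2.15 CPM with a median of 0.698. EXC libraries ran from 18.8 to 61.9 CPM with a median of 37.2, SST libraries from 74.7 to 173 with a median of 104 and VIP libraries from 153 to 497 with a median of 260. No PV library reached the lowest library of any other subtype, EXC lay below SST and VIP, and SST and VIP overlapped. The fitted log2 fold change of PV was -5.54 ± 0.48 against EXC (adjusted p = 4.49e-10), -7.17 ± 0.47 against SST (adjusted p = 1.46e-11) and -8.41 ± 0.47 against VIP (adjusted p = 1.53e-13). With so few reads in PV these sizes depend on how the fit treats low counts, so they are given as fitted values.

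Among the other classes Fxyd6 rose from EXC to SST to VIP. SST exceeded EXC by 1.63 ± 0.29 (adjusted p = 5.84e-05) and VIP exceeded EXC by 2.87 ± 0.31 (adjusted p = 2.57e-08). SST was below VIP by 1.25 ± 0.30 (log2 fold change -1.25, adjusted p = 0.00259). Within POOL7098 this last difference was -0.74 ± 0.28 (adjusted p = 0.046), and with the pool as a covariate -0.76 ± 0.34 (adjusted p = 0.088). The other 5 calls held with the pool as a covariate. Within POOL6188 the log2 fold change of PV against EXC was -5.66 ± 0.45 (adjusted p = 2.38e-08). Leaving out any 1 library kept all 6 calls.

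Fxyd7, the gene of a brain-enriched FXYD protein (57780, chromosome 7, 31042515 to 31051454), was sparse throughout and shared with Fxyd6 only the low level in PV. It had 13 reads over the 6 PV libraries, 73 over VIP, 275 over EXC and 741 over SST. PV libraries ran from 0 to 2.15 CPM with a median of 1.07, VIP libraries from 0.388 to 5.15 with a median of 1.35, EXC libraries from 3.28 to 9.55 with a median of 6.26 and SST libraries from 5.95 to 12.2 with a median of 10.1. SST lay above every PV and VIP library and EXC above every PV library, while PV overlapped VIP and EXC overlapped SST and VIP. VIP, the class with the most Fxyd6, thus had little Fxyd7.

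The log2 fold change of Fxyd7 in PV was -2.64 ± 0.57 against EXC (adjusted p = 0.000408) and -3.26 ± 0.57 against SST (adjusted p = 7.47e-05). VIP was -1.63 ± 0.46 against EXC (adjusted p = 0.00591), and SST exceeded VIP by 2.24 ± 0.47 (adjusted p = 0.00059). PV against VIP, at -1.02 ± 0.59 (adjusted p = 0.158), and SST against EXC, at 0.61 ± 0.43 (adjusted p = 0.269), did not pass. SST stayed above VIP within POOL7098 by 3.48 ± 0.49 (adjusted p = 9.01e-05). With the pool as a covariate VIP against EXC lost its call (-0.45 ± 0.82, adjusted p = 0.735) and SST against EXC gained one (2.98 ± 1.13, adjusted p = 0.0441). Fxyd7 overlaps a long noncoding RNA gene, Gm38984, and without the strand setting its reads cannot be told apart from those of that gene.

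Slc12a2 encodes NKCC1, which loads cells with chloride (20496, chromosome 18, 57878512 to 57946821). PV libraries ran from 22.9 to 37.4 CPM with a median of 29.0, EXC libraries from 27.9 to 111 with a median of 37.3, SST libraries from 30.6 to 103 with a median of 62.5 and VIP libraries from 35.8 to 117 with a median of 64.5. PV held the low end and overlapped each of the others. PV was below SST (log2 fold change -1.12 ± 0.33, adjusted p = 0.0115) and below VIP (-1.29 ± 0.33, adjusted p = 0.00207). With the pool as a covariate neither passed (-0.83, adjusted p = 0.508, and -1.36, adjusted p = 0.219). PV against EXC was -0.69 ± 0.33 (adjusted p = 0.0904), SST against EXC 0.43 ± 0.31 (adjusted p = 0.292), VIP against EXC 0.60 ± 0.32 (adjusted p = 0.144) and SST against VIP -0.18 ± 0.31 (adjusted p = 0.706).

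EXC replicate 6 stood apart in Slc12a2, with 111 CPM against 27.9 to 57.1 in the other 5 libraries. Glia and blood vessels also make NKCC1, and the same library had 892 CPM of astrocyte markers, 2970 CPM of the 9 oligodendrocyte markers and 178 CPM of the 7 endothelial markers. EXC replicate 2 had as much oligodendrocyte signal, 2987 CPM. The part of these cells in the Slc12a2 level was not tested. Without EXC replicate 6, Slc12a2 was higher in SST than in EXC by 0.82 ± 0.28 (adjusted p = 0.0251) and in VIP by 0.97 ± 0.29 (adjusted p = 0.00965), and PV against EXC was -0.33 ± 0.30 (adjusted p = 0.382).

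Slc12a5 encodes KCC2, the chloride extruder of mature neurons (57138, chromosome 2, 164960846 to 164999731). In the fit to all 24 libraries without a pool term, no pair of subtypes lay further apart than 0.43 on the log2 scale. PV libraries ran from 417 to 552 CPM with a median of 459, SST libraries from 425 to 523 with a median of 449, EXC libraries from 243 to 513 with a median of 374 and VIP libraries from 280 to 441 with a median of 348. All subtypes overlapped in pairs, and the lowest value was again that of EXC replicate 3. PV against VIP was the one pair of 6 that passed, at 0.43 ± 0.15 (adjusted p = 0.0232). That call was lost without PV replicate 5 (0.37, adjusted p = 0.071), VIP replicate 1 (0.33, adjusted p = 0.0938), VIP replicate 3 (0.39, adjusted p = 0.052) or VIP replicate 6 (0.36, adjusted p = 0.0699), and without a filter on low counts (0.42, adjusted p = 0.0736). SST against VIP was 0.38 ± 0.16 (adjusted p = 0.0634), and within POOL7098 it was 0.75 ± 0.19 (adjusted p = 0.00714). It also passed without EXC replicate 3 (0.37, adjusted p = 0.0326), EXC replicate 5 (0.39, adjusted p = 0.0398) or VIP replicate 5 (0.48, adjusted p = 0.0295). The VIP libraries of POOL7098 stood at 280 and 306 CPM, and VIP replicate 6 at 298 CPM. VIP replicates 2, 4 and 5 stood higher, at 390, 392 and 441 CPM.

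The remaining Slc12a5 differences were small in the fit without a pool term. PV against EXC was 0.32 ± 0.15 (adjusted p = 0.095) and passed without EXC replicate 5 (0.43, adjusted p = 0.0193) or EXC replicate 6 (0.39, adjusted p = 0.0484). SST against EXC was 0.27 ± 0.15 (adjusted p = 0.164) and passed without EXC replicate 5 (0.41, adjusted p = 0.0293). PV against SST was 0.05, with a 95% interval of -0.27 to 0.37, and VIP against EXC -0.11, with an interval of -0.44 to 0.22. With the pool as a covariate Slc12a5 in PV turned to -1.14 ± 0.34 against SST (adjusted p = 0.017). Against VIP it turned to -0.48 ± 0.28 (adjusted p = 0.264), and VIP against EXC to 0.71 ± 0.26 (adjusted p = 0.0454). In that fit SST thus lay above EXC by more than VIP did.

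The balance of KCC2 to NKCC1 transcripts was measured within each library as the log2 ratio of their RPKM, since extruder and importer work against each other. It ran from 3.74 to 4.67 in PV with a median of 3.99, from 2.13 to 3.83 in EXC with a median of 3.39, from 2.43 to 3.89 in SST with a median of 2.90 and from 1.35 to 3.54 in VIP with a median of 2.58. Slc12a5 exceeded Slc12a2 in all 24 libraries, PV lay above every VIP library, and PV overlapped EXC and SST. The mean linear ratio was 17.8 ± 4.53 for PV, 9.77 ± 3.95 for EXC, 8.50 ± 3.38 for SST and 6.44 ± 3.44 for VIP (SD over 6 libraries).

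In exact two-sided permutation tests PV exceeded EXC by 0.95 in the log2 ratio (p = 0.00433, adjusted p = 0.00649), SST by 1.11 (p = 0.00433, adjusted p = 0.00649) and VIP by 1.62 (p = 0.00216, adjusted p = 0.00433). The other differences were -0.16 for SST against EXC (exact permutation p = 0.647), -0.67 for VIP against EXC (exact permutation p = 0.16) and 0.51 for SST against VIP (exact permutation p = 0.229). Within POOL6188 PV exceeded EXC by 0.82 (exact permutation p = 0.00866). PV shares no pool with SST or VIP, and these tests hold no pool term. Subtype and pool thus cannot be told apart in the ratio differences of PV from SST and from VIP. Within POOL7098 SST exceeded VIP by 1.28, where 5 against 2 libraries cannot give an exact permutation p below 0.0952. EXC replicate 6, high in Slc12a2, had the lowest ratio in EXC, and without it PV exceeded EXC by 0.74 (exact permutation p = 0.00866).

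**Figure D4:**
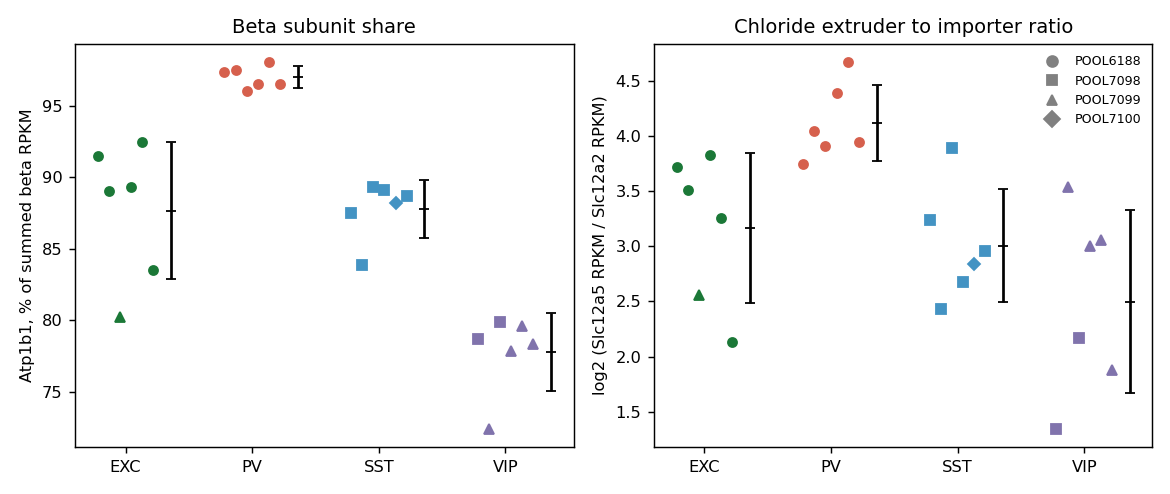
Left, the share of Atp1b1 in the summed RPKM of the 3 beta genes (%), and right, the log2 ratio of Slc12a5 to Slc12a2 RPKM (y axes), by subtype; each point is 1 library, its shape the sequencing pool, and the bar beside it the mean ± SD of 6. Both panels have their highest group in PV, with 97.0% and a log2 ratio of 4.11, and their lowest in VIP, with 77.8% and 2.50.

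EXC was also compared with the mean of the 3 interneuron sorts, an average that need not hold for each of them. Of the 7 genes 3 were called, 1 higher and 2 lower in EXC, where 42.5% of all genes tested were called (24.5% higher and 18.1% lower). Fxyd7 was higher in EXC by 1.22 ± 0.36 (adjusted p = 0.00727; 0.96 and adjusted p = 0.0581 without EXC replicate 1). Atp1b3 was lower (-0.86 ± 0.21, adjusted p = 0.00195), and so was Atp1b1 (-0.50 ± 0.17, adjusted p = 0.0206; -0.37 and adjusted p = 0.00774 without EXC replicate 3). Fxyd6 did not pass (0.35 ± 0.29, adjusted p = 0.35) although its CPM averaged 37.2 in EXC and 130 over the other sorts. The contrast averages log levels, among them those of PV, which had 11 reads of Fxyd6. None of the 3 called genes set EXC apart from each sort. Fxyd7 averaged 9.43 CPM in SST against 6.10 in EXC, and Atp1b1 2183 CPM in VIP against 2492 in EXC. Atp1b3 averaged 59.0 CPM in PV against 60.5 in EXC. SST shares no pool with EXC, and VIP meets EXC only through EXC replicate 3, so pool and subtype are largely confounded in this contrast. With the pool as a covariate Fxyd7 lost its call for VIP against EXC and gained one for SST, as higher. In the same fit Atp1b3 lost its calls for SST and VIP against EXC, and Atp1b1 in VIP turned to lie above EXC.

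A list of 35 further genes of the pump, the FXYD and Nkain families, the cation-chloride cotransporters, their kinases and other chloride carriers was read beside the 7. Of these, 27 passed the filter. PV against EXC called 8 higher and 8 lower (45.9% of all genes were called), SST against EXC 7 and 10 (38.4%) and VIP against EXC 4 and 7 (39.1%). PV against SST called 7 higher and 6 lower (26.3%), PV against VIP 6 and 7 (48.6%) and SST against VIP 5 and 3 (31.3%). The median log2 fold change of the 27 was 0.06, -0.25, -0.33, 0.01, 0.04 and 0.08 in that order, beside the medians over all genes given above. Beside Fxyd6 and Fxyd7, Fxyd5 (dysadherin) also had its lowest level in PV, with 1.27 ± 1.02 CPM against 13.6 ± 9.91 in EXC (-3.48 ± 0.61, adjusted p = 3.8e-05), 2.68 ± 1.03 in SST and 3.71 ± 2.34 in VIP. Fxyd5 was also lower in SST (-2.34 ± 0.49, adjusted p = 0.000457) and in VIP (-1.86 ± 0.51, adjusted p = 0.00494) than in EXC. The sparser FXYD genes did not all go this way. Fxyd2 and Fxyd3 had 0 reads in PV, but Fxyd1 averaged 1.99 CPM in PV and 0.0751 in VIP. Fxyd4 averaged 1.41 CPM in PV and 0.684 in EXC. These 4 are named after their values were seen, since their levels are under the minimum for named genes.

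Several genes whose proteins act on KCC2 and NKCC1 differed between the classes. Neto2, an auxiliary protein of kainate receptors that also binds KCC2, stood at 430 ± 74.4 CPM in PV and 569 ± 161 in SST, against 51.9 ± 13.9 in EXC and 54.9 ± 16.0 in VIP. PV exceeded EXC in Neto2 by 3.09 ± 0.22 (adjusted p = 1.12e-11) and VIP by 2.94 ± 0.22 (adjusted p = 3.27e-11). SST exceeded EXC by 3.48 ± 0.22 (adjusted p = 2.91e-12) and VIP by 3.33 ± 0.22 (adjusted p = 6.68e-12). Stk39, the kinase SPAK that phosphorylates both cotransporters, stood at 125 ± 14.7 CPM in PV, 53.9 ± 6.07 in SST, 41.5 ± 6.64 in VIP and 63.7 ± 9.93 in EXC. PV was higher in Stk39 than SST (adjusted p = 1.74e-07), and higher than VIP by 1.61 ± 0.14 (adjusted p = 6.27e-10). Its close relative Oxsr1 had its highest level in VIP, at 66.1 ± 13.4 CPM, above EXC by 0.66 ± 0.19 (adjusted p = 0.00607) and above SST, which was at -1.24 ± 0.19 (adjusted p = 1.18e-05). Wnk3, a kinase upstream of both, was higher in SST than in EXC (0.87 ± 0.15, adjusted p = 4.73e-05). Its mean was 259 CPM in SST, 223 in PV, 203 in VIP and 141 in EXC.

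Other chloride carriers and pump partners differed as well. Clcn2, a chloride channel gene, was highest in EXC at 38.2 ± 8.29 CPM and lower in PV (-2.30 ± 0.23, adjusted p = 6.1e-09), SST (-1.99 ± 0.21, adjusted p = 2.82e-08) and VIP (-1.63 ± 0.21, adjusted p = 5.56e-07). Slc4a8, a sodium-driven exchanger of chloride for bicarbonate, was higher in SST than in VIP (0.56 ± 0.13, adjusted p = 0.00235). Its mean was highest in PV at 330 CPM, with 224 in SST, 153 in VIP and 144 in EXC. The Nkain genes encode proteins that bind Atp1b1. Nkain2 was lower in PV than in EXC (-2.22 ± 0.20, adjusted p = 7.73e-10), SST (-1.44 ± 0.20, adjusted p = 2.67e-06) and VIP (-1.26 ± 0.20, adjusted p = 9.81e-06), and lower in VIP than in EXC (-0.96 ± 0.19, adjusted p = 0.000209). Nkain3 was lower in PV than in SST (-2.24 ± 0.23, adjusted p = 2.57e-08) and VIP (-1.31 ± 0.22, adjusted p = 3.41e-05), and higher in SST than in VIP (0.92 ± 0.21, adjusted p = 0.00119). Nkain1 was lower in PV than in SST (-1.01 ± 0.28, adjusted p = 0.00828). These 3 Nkain genes had their lowest mean CPM in PV, where Atp1b1 had its highest. The fourth that was tested, Nkain4, went the other way, with its highest mean in PV at 4.04 CPM against 1.44 CPM in SST (log2 fold change 1.34, adjusted p = 0.0433). It is named after its values were seen, since its level is under the minimum for named genes.

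**Figure D5:**
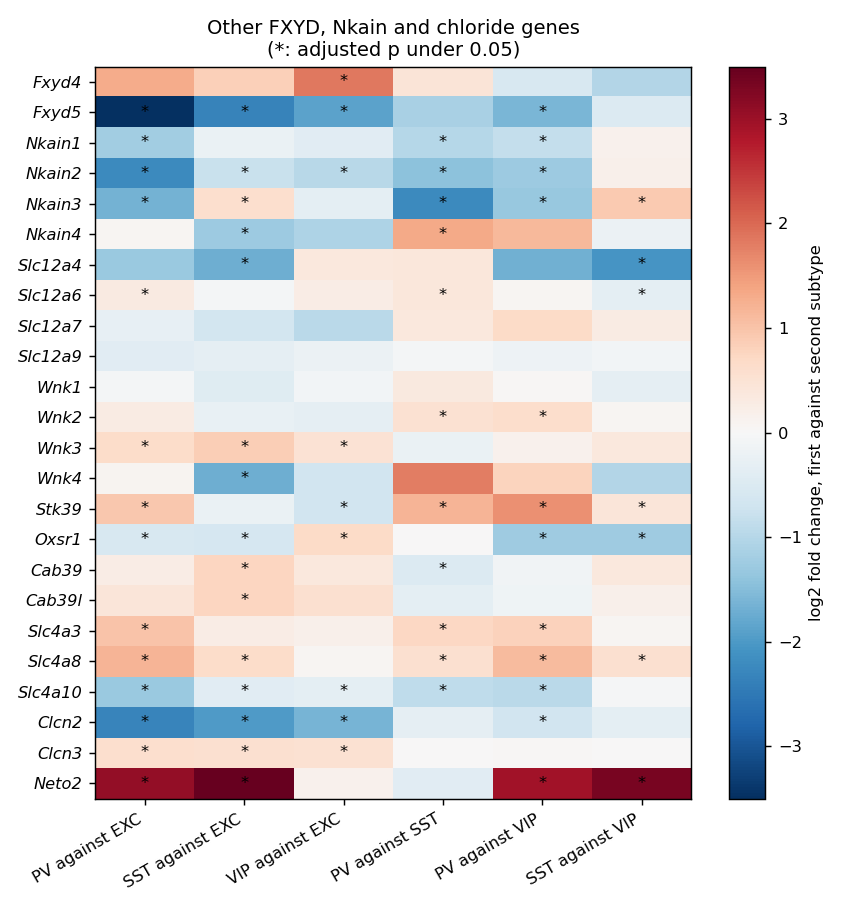
Log2 fold change (colour) of 24 of the 27 further genes that passed the filter, of the FXYD and Nkain families, the cotransporters, their kinases and other chloride carriers (rows), in each pair of subtypes (columns), first against second; asterisks mark an adjusted p under 0.05. Neto2 is high in PV and SST, with 3.09 and 3.48 against EXC, and Clcn2 is low in PV and SST, with -2.30 and -1.99.

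The genes whose levels ran most like each of the 7 were taken as a description, by Pearson's r of log2 CPM over the 24 libraries among 8193 genes. The libraries share subtype and pool, so these values carry no test. Atp1b1 was followed by Got2, a mitochondrial aspartate aminotransferase gene (0.97), and Iqsec1 (0.97). Got2 averaged 154 ± 16.6 CPM in PV and 45.3 ± 12.1 in VIP. Fxyd6 was followed by Syt6 (0.96), Rgs8 (0.96) and Pde4b (0.96), of which Syt6, a synaptotagmin gene, averaged 1.63 ± 2.19 CPM in PV and 68.2 ± 9.68 in VIP. Among the genes most like Slc12a5 were the synaptic vesicle gene Syp (0.91) and Ctnnd2 (0.89). Atp1b2 was followed by Brinp3 (0.91), the GABA transporter gene Slc6a11 (0.90) and Rph3a (0.90), and Atp1b3 by Tmx3 (0.90), Zmat1 (0.90) and Jrkl (0.89). Fxyd7 and Slc12a2 had weaker matches, Fxyd7 with Cnih2 (0.86), Gda (0.86) and Tmcc3 (0.86), and Slc12a2 with Atp2c1 (0.85), Msl2 (0.84) and Caap1 (0.84). Among the 7 genes themselves r was highest for Atp1b2 with Fxyd6 (0.87) and for Atp1b3 with Slc12a2 (0.78), and lowest for Atp1b1 with Fxyd6 (-0.74).

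No difference by sex was detectable in the 7 genes at this number of libraries. Between 11 female and 13 male libraries 0 of 7 were called by edgeR's quasi-likelihood test, where 0.0403% of all genes tested were called (0.0134% higher and 0.0269% lower in females). None had an unadjusted p under 0.05, the lowest being 0.19 for Slc12a2, and DESeq2 called 0 as well. The log2 fold changes of female against male ran from -0.31 for Slc12a2 to 0.10 for Atp1b1. The interval was -0.26 to 0.21 for Slc12a5 and -0.80 to 0.17 for Slc12a2. A subtype effect that differed by sex was called for 0 of 7 genes by either tool and for 0% of all genes, with the lowest unadjusted p 0.159 for Fxyd6 and 0 of 7 under 0.05.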

How the data were processed

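Per the labels' protocols, cortex was dissociated with papain, live fluorescent cells were sorted, and sort purity was checked with marker assays. Per the submitters' processing notes the authors aligned the reads with GSNAP to GRCm38. Each deposited count is, per the file headers, the number of uniquely aligned reads within a gene's model, and the other deposited column holds RPKM values that the authors normalised with size factors. The counting program, annotation release, strand setting and size factor method are not stated in those sources. In each library, 31049 of 36528 genes had a symbol in RefSeq, and the rest stayed in the tests unnamed. Genes without a symbol held at most 3.00% of a library's reads.

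Counts were filtered with filterByExpr, scaled by TMM and fitted in edgeR 4.0.16 (R 4.3.3) to all 24 libraries with terms for subtype and sex, which kept 14890 genes. The standard error is the log2 fold change divided by the square root of F, and intervals are at 95%. The PV libraries were the shallowest, with 1548907 to 4653119 reads, so low levels are least precise in PV. Shares and ratios were computed from the deposited RPKM and tested with exact permutation tests in scipy 1.17.1, all 924 splits, adjusted over 12 tests. The fits were tested on simulated data. Likeness used log2 CPM with a prior count of 2 and genes of at least 10 CPM.

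Replicate numbers follow accession order and pair no libraries. The 7 genes, the list of 35 genes and the marker lists were chosen with earlier results of these data known. All 7 genes are named in every comparison; of the list of 35, values are given for up to 4 called genes per comparison, by size of change, with at least 10 CPM in the higher subtype. Alternatives were DESeq2 1.42.0 and its size factors, upper-quartile factors, the authors' library factors, no mitochondrially encoded genes, no filter, a filter of 5 CPM in 6 libraries, the pool as a covariate, fits within POOL6188 or POOL7098, robust empirical Bayes, no sex term, only the subtypes compared, and fits without 1 library or without 2 together. Values of some listed genes and likeness matches are not reported here, although counts over the list include them.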

Additional observations from a re-analysis of the deposited data

Results flagged for a closer look

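Of 36 sets of 6 libraries examined (each of the 7 genes and both within-library measures in each subtype), 4 held a library far from the other 5 by Dixon's criterion, where chance gives about 1 in 20 sets. Atp1b1 stood at 805 CPM in EXC replicate 3 and at 2432 to 3196 CPM in the other EXC libraries. This is the library with the lowest excitatory marker sum in EXC (1818 CPM, next lowest 3594) and the only EXC library of POOL7099. Slc12a2 stood at 111 CPM in EXC replicate 6, against 27.9 to 57.1 CPM in the others, and that library had the highest astrocyte marker sum, 892 CPM. The share of Atp1b1 among the beta subunits was 83.9% in SST replicate 2, against 87.5% to 89.3% in the other SST libraries. The same share was 72.4% in VIP replicate 2, against 77.8% to 79.8% in the other VIP libraries, and that library had the highest Atp1b2 level of all, 820 CPM.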

How the results depend on the processing

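No paired analysis was possible because replicate numbers only follow the order of deposition. Removing mitochondrially encoded genes or using robust empirical Bayes changed no call and no direction among the 7 genes. The pool as a covariate changed most: it gave 5 calls for SST against EXC and 2 for PV against VIP (6 without it). It turned Atp1b1 to -1.04 for PV against SST, -0.31 for PV against VIP and 1.51 for VIP against EXC, and Slc12a5 to -1.14, -0.48 and 0.71 in the same order. Against the mean of the other sorts it turned Slc12a2 in EXC to 0.0200 and Fxyd6 to -0.64. Atp1b3 for PV against EXC, close to 0 throughout, was -0.0282 with DESeq2, -0.0276 with its size factors, -0.0280 with the authors' factors, -0.0337 with no sex term, -0.00435 with no filter and -0.00186 with the 5 CPM filter. Slc12a5 for PV against SST was -0.0419 with no filter. Without EXC replicate 3 and SST replicate 5, Atp1b2 for EXC against the mean was 0.0538; without EXC replicates 2 and 6, Slc12a5 for female against male was 0.0199. The Atp1b1 share of SST minus EXC was -0.76 by medians, -1.47 without EXC replicate 3 and SST replicate 5 and -0.60 without EXC replicates 2 and 6. Within POOL7098 the share of SST exceeded that of VIP by 8.43 points (exact permutation p = 0.0952, the smallest possible).

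Leaving out 1 library moved the calls for SST against VIP between 2 and 5. It moved Atp1b3 for PV against EXC from -0.13 to 0.16, Slc12a5 for VIP against EXC from -0.17 to 0.0247 and for PV against SST from -0.0132 to 0.0887, and Slc12a2 for SST against VIP from -0.34 to 0.0219. Atp1b2 for EXC against the mean ran from -0.30 to 0.0633. For female against male Atp1b2 ran from -0.00957 to 0.15, Fxyd6 from -0.13 to 0.17, Slc12a5 from -0.0844 to 0.0233 and Fxyd7 from -0.24 to 0.38. The Atp1b1 share of SST minus EXC ran from -1.39 to 1.06. The causes were not tested. The median log2 fold change of all genes for PV against EXC was -0.12 with TMM and -0.15 with DESeq2 factors, and for SST against VIP -0.0033 and -0.0852. Depth limits Fxyd6 and Fxyd7 in PV, with 11 and 13 reads.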
